A study of Mus musculus with 8 samples.

Results

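Akr1c14, Paqr5, Abcc3 and Fkbp5 are genes of steroid and bile acid handling, and each is named at 1 or more regions of changed H3K27me3, the trimethylation of histone H3 at lysine 27, in the authors' deposited table. All 8 regions that name 1 of these 4 genes as overlapping or flanking were taken, together with 3 further regions of the table within 100 kb of them on the same chromosome. These 11 regions were among the 378 that the table lists, all with a false discovery rate (FDR) of at most 0.0498. The genes were therefore chosen by the same comparison that gives their values, which are described here without a test. The cells were jejunal intestinal epithelial cells from the crypts of female mice. The 4 control samples are labelled Control/WT and the 4 double-knockout (DKO) samples Kdm6a/Kdm6b knockout. Both groups carry a time of 7 days, counted from the induction of Kdm6a and Kdm6b ablation, although only the DKO samples are labelled as knockout. Chromatin from both groups was precipitated with an H3K27me3 antibody and sequenced. The labels used here state neither what drives the ablation, nor the age of the mice, nor whether each sample is a separate mouse. The table compares the groups and holds no value per sample, so depth is unknown, the spread between samples cannot be shown and no fold change has a standard error. The cell type could not be checked against marker genes, because the table holds no expression values.

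H3K27me3 is laid down by Polycomb repressive complex 2 and goes with transcriptional silencing. KDM6A (UTX) and KDM6B (JMJD3) remove it. The 4 genes act at separate steps. PAQR5 is a membrane progesterone receptor of the progestin and adipoQ receptor (PAQR) family, AKR1C14 is an aldo-keto reductase that works as a 3-alpha-hydroxysteroid dehydrogenase, ABCC3 (MRP3) exports bile acids and glucuronide conjugates across the basolateral membrane of epithelial cells, and FKBP5 (FKBP51) is an HSP90 co-chaperone that lowers the hormone affinity of the glucocorticoid receptor. Gut epithelium takes up bile acids, and its crypts are known to make glucocorticoids locally.

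The promoters of Paqr5, Akr1c14 and Fkbp5 are shown because they differ in position and base composition. Those of Paqr5 and Akr1c14 lie inside up regions and that of Fkbp5 lies outside the region named for its gene. They are the 250 bases before the gene start in RefSeq (GRCm38.p6, the assembly behind mm10), written 5′ to 3′ on the gene's strand, with CpG dinucleotides in capitals. The positions are chr9:62026791-62027040 on the minus strand for Paqr5, chr13:4059341-4059590 on the plus strand for Akr1c14 and chr17:28486150-28486399 on the minus strand for Fkbp5.
Paqr5: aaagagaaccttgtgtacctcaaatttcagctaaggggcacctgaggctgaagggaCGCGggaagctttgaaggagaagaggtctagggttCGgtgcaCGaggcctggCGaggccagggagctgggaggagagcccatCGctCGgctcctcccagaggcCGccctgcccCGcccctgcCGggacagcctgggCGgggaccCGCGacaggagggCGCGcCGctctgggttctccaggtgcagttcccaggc
Akr1c14: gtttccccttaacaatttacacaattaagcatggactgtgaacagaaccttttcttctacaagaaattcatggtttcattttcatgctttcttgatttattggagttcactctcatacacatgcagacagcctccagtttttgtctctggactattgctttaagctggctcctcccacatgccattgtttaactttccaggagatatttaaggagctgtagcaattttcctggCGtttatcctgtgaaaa
Fkbp5: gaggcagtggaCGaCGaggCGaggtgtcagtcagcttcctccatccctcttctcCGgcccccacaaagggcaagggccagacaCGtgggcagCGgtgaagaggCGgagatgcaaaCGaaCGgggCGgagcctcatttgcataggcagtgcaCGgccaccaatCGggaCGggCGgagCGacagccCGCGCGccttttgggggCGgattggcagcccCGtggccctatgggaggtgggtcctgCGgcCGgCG
The Paqr5 sequence held 16 CpG and 66.8% G or C, the Akr1c14 sequence 1 CpG and 38.8%, and the Fkbp5 sequence 23 CpG and 68.0%. Across all 32851 RefSeq promoters of this length the median was 6 CpG and 52.4% G or C. Fewer CpG than at Paqr5 were found in 74.6% of promoters, fewer than at Akr1c14 in 7.87% and fewer than at Fkbp5 in 86.7%. The up regions over gene starts thus included a promoter with more CpG than the median and one with fewer. The Akr1c14 region also held the 5′ end of the RefSeq gene body, and the sequence before that position was not examined. On either strand, none of the 3 sequences held AGAACA, the half-site of steroid receptor binding (in 16.1% of all promoters), AGGTCA, a nuclear receptor half-site (14%), or TATAAA (12.4%).

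**Figure D1:**
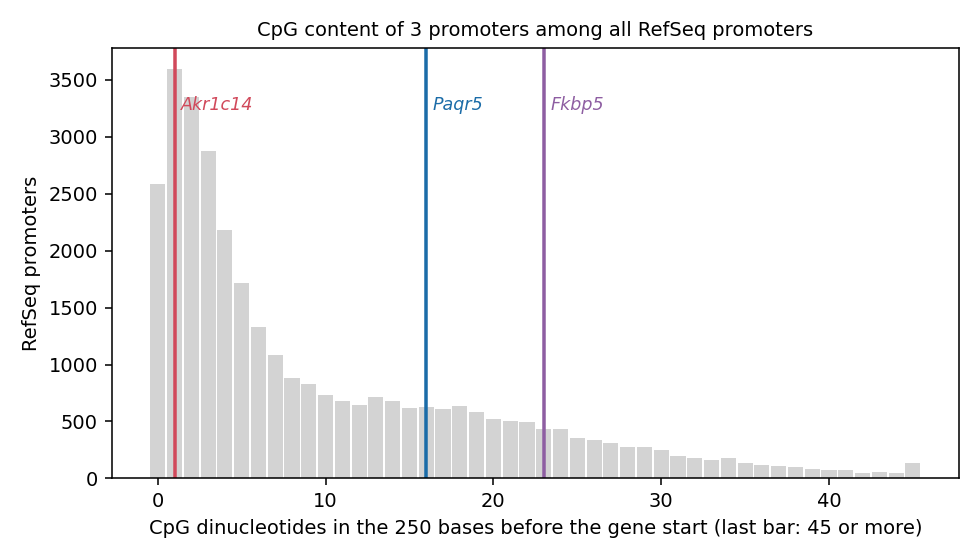
Number of RefSeq promoters (vertical axis) by their count of CpG dinucleotides in the 250 bases before the gene start (horizontal axis), with vertical lines at the 3 promoters printed above. Akr1c14 has 1 CpG and stands among the commonest low counts, while Paqr5 with 16 and Fkbp5 with 23 stand to the right of most promoters.

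Of the 8 regions that name the 4 genes, 7 were up and 1 was down in the authors' deposited table. The p-values and FDR of the authors' deposited table imply 58963 regions tested, of which 0.641% were listed, 0.438% as up and 0.204% as down. Since listing chose the genes, nothing is read from their count. The up regions belonged to Paqr5, Akr1c14 and Abcc3, and the down region to Fkbp5. The table does not name its reference group, so up and down are used as it gives them. By common practice up would mean more H3K27me3 in DKO, but the table does not say so. In a bulk preparation, a change of the mark in every cell and a change in the share of cells that carry it cannot be told apart.

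**Figure D2:**
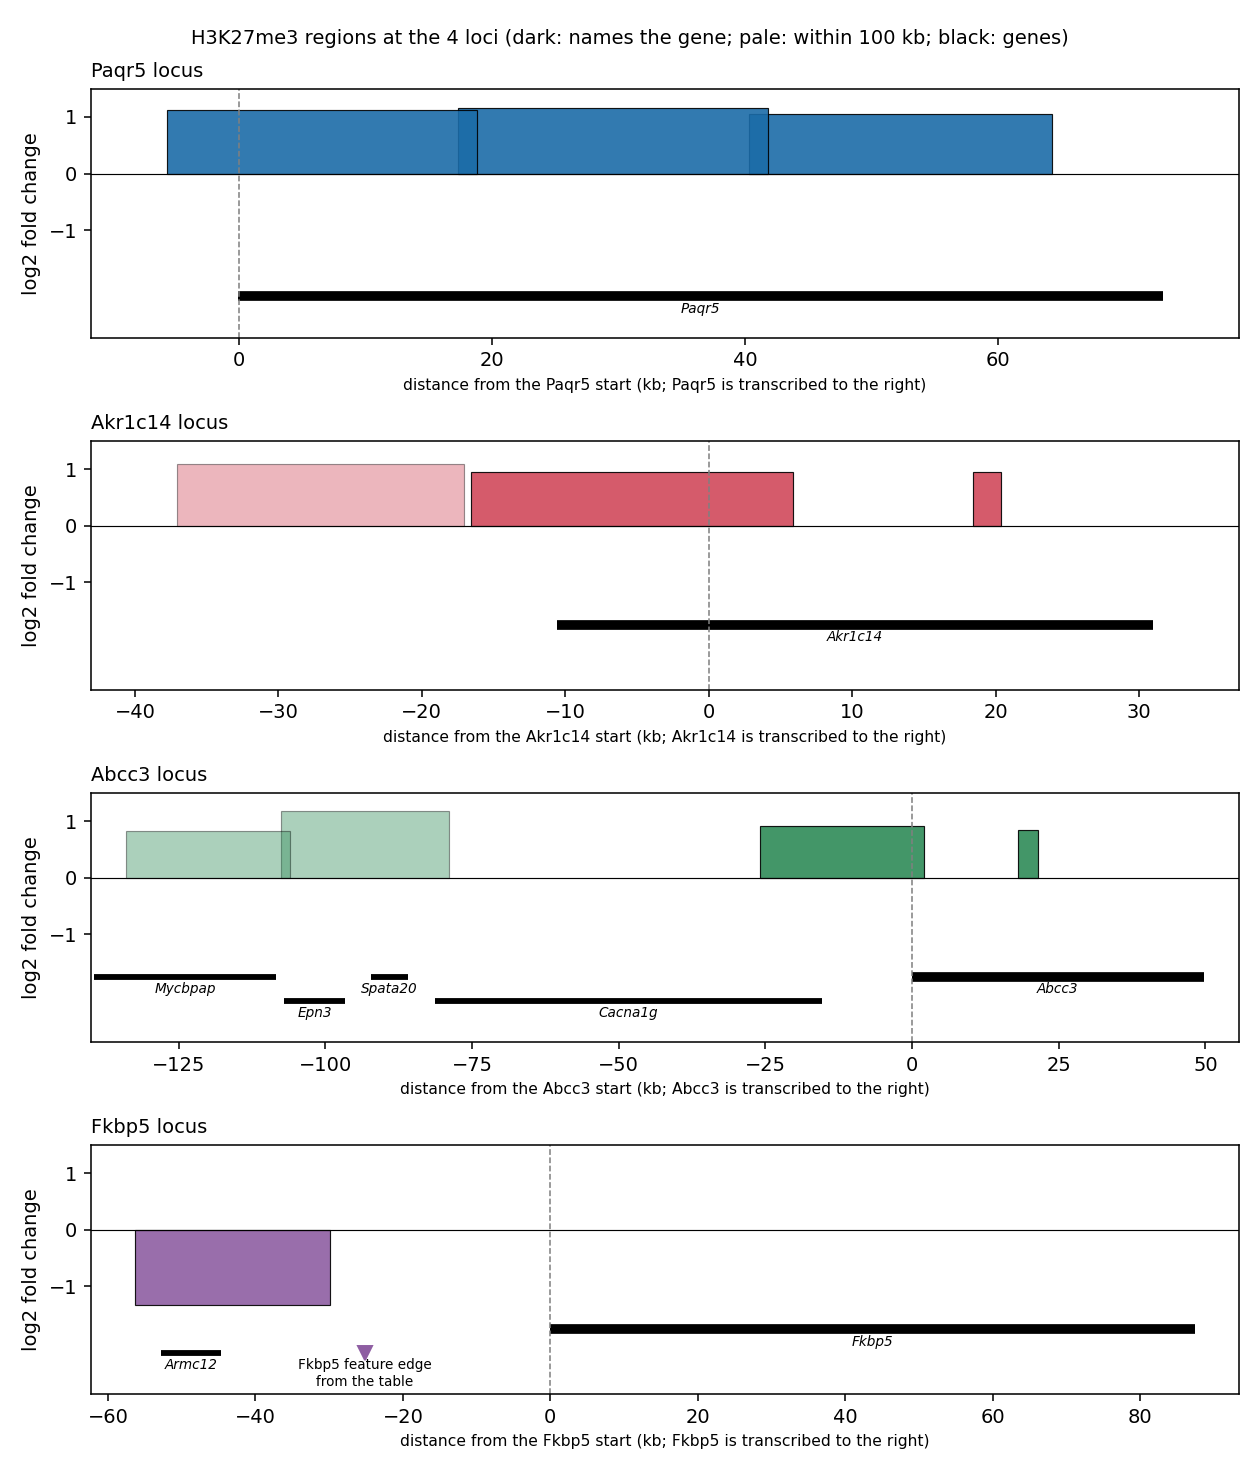
Regions at the 4 loci as bars placed by distance from the gene start in kb (horizontal axis) with the log2 fold change from the authors' deposited table as height (vertical axis), dark where the region names the gene and pale where it lies within 100 kb, and RefSeq protein-coding genes as black lines. The Paqr5 bars tile most of the gene, the Akr1c14 bars lie mainly before and around the start, the large dark Abcc3 bar lies almost wholly upstream, and the Fkbp5 bar ends 29.9 kb before the RefSeq start.

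Paqr5 had the most extended change. Its 3 up regions followed each other along the gene, each sharing 1500 bp with the next, and together ran from chromosome 9, 61962501 to 62032500 (mm10), a stretch of 70.0 kb. They covered 64.4 of the 73.1 kb of the RefSeq gene body (61953738 to 62026852, minus strand), or 88.0%, and left out 8.76 kb at its 3′ end. The stretch began 5.71 kb upstream of the gene start and reached 64.3 kb downstream of it. It also held the noncoding gene Gm35152, which lies within Paqr5 on the other strand, so the mark over their shared part belongs to both. The nearest coding genes on either side lay outside it, with Kif23, which encodes a mitotic kinesin, 15.7 kb and Glce, which encodes a heparan sulfate epimerase, 24.7 kb away.

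The region over the Paqr5 start (62008001 to 62032500) had, by the authors' deposited table, a log2 fold change of 1.12 (2.18-fold) at an FDR of 5.24e-05. Every one of its 138 windows was counted as up in the authors' deposited table. Among the 116 up regions with 100 or more windows, this held for 2. The middle region (61985001 to 62009500, 17.3 to 41.8 kb downstream of the start) had the largest value, 1.15 (2.22-fold, FDR 7.77e-05), with 115 of 135 windows up in the authors' deposited table. The region farthest into the gene (61962501 to 61986500, 40.3 to 64.3 kb downstream) had 1.06 on the log2 scale (2.08-fold, FDR 0.00171), with 101 of 132 windows up in the authors' deposited table. The 3 log2 fold changes thus differed by at most 0.09, while the share of windows counted as up was 100% at the start, 85.2% in the middle and 76.5% toward the 3′ end. The letters that the table gives for the region farthest into the gene are read as promoter and exon of Paqr5. The RefSeq promoter entry of the gene lies elsewhere, so the authors' annotation may hold another Paqr5 start there. By log2 fold change the regions ranked 40th, 32nd and 69th of the 258 up regions of the authors' deposited table, in the order given here. The regions abut and were tested in 1 comparison, so they are not independent observations of the gene.

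Akr1c14 had its wide up regions upstream of and around its start. The RefSeq gene body runs from 4048991 to 4090560 on chromosome 13 (plus strand), and the RefSeq promoter entry puts a start at 4059591, 10.6 kb inside it. The region at 4043001 to 4065500 held both positions, from 16.6 kb before to 5.91 kb after the start at 4059591. It had a log2 fold change of 0.95 (1.93-fold, FDR 0.0207), with 97 of 110 windows up in the authors' deposited table. Only 500 bp away lay an up region that names no gene, at 4022501 to 4042500, which had a larger value of 1.10 (2.14-fold, FDR 7.76e-04) and 105 of 111 windows up in the authors' deposited table. This region ended 6.49 kb before the Akr1c14 body and held the pseudogene Gm18857 whole. Of the regions at this locus, the one with the largest log2 fold change thus lay outside the gene.

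A further Akr1c14 region at 4078001 to 4080000, 18.4 to 20.4 kb after the start, consisted of 1 window. By the authors' deposited table it had 0.95 on the log2 scale (1.94-fold) at an FDR of 0.00335. The table marks it with the letters read as promoter and exon, although the RefSeq promoter entry of the gene lies elsewhere, so the authors' annotation may hold another start there. A stretch of 12.5 kb between this region and the one over the start is not listed. A stretch that is not listed did not pass the FDR limit or was not tested, and need not be unchanged. Akr1c14 belongs to a cluster of close paralogs, and the labels do not say how reads that match several of them were treated.

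Abcc3 had the smallest changes of the 4 genes. Its RefSeq body lies at chromosome 11, 94343295 to 94393017 (minus strand), and only 5.52 kb or 11.1% of it was covered. The region at 94391001 to 94419000 held the gene start but extended only 2.02 kb into the gene and 26 kb upstream. It crossed the 15.4 kb between the genes and then 10.6 kb of the 3′ part of Cacna1g, which encodes a T-type calcium channel. The table marks Cacna1g there with the letters read as promoter and exon, although its RefSeq start lies outside the region. The authors' annotation may thus hold another Cacna1g start there. The region had a log2 fold change of 0.91 (1.88-fold, FDR 0.0196), with 67 of 151 windows up in the authors' deposited table. Which part of it held those windows is not given, so the change cannot be assigned to Abcc3 rather than to the intergenic stretch or Cacna1g. A narrow region within the gene, at 94371501 to 94375000, marked as exonic and 18.0 to 21.5 kb after the start, had 0.84 (1.8-fold, FDR 0.0359) and 6 of 6 windows up in the authors' deposited table. It was the only Abcc3 region that lay wholly inside the gene.

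The other regions of the Abcc3 run lay farther upstream, at and beyond the start of Cacna1g. The region at 94472001 to 94500500 held the start of Cacna1g and the whole of Spata20 and Epn3, of which Epn3 encodes an epsin, an endocytic adaptor. Its log2 fold change was 1.18 (2.26-fold, FDR 5.80e-04), with 49 of 161 windows up in the authors' deposited table. The adjoining region at 94499001 to 94527000 held the start of Epn3, 82.6% of Mycbpap and a Mycbpap start by its RefSeq promoter entry. It also held the noncoding genes Gm51873 and Gm35650 whole. This adjoining region had 0.83 (1.77-fold, FDR 0.0430) and 17 of 155 windows up in the authors' deposited table. The largest value of the run thus lay 53.0 kb from the region over the Abcc3 start, at Cacna1g, Spata20 and Epn3. The last region, 80.0 kb from the region that names Abcc3, was the farthest within the 100 kb limit, and the nearest beyond the limit at any of the loci was a down region on chromosome 13, 234 kb from a region that names Akr1c14 (by the authors' deposited table, log2 fold change -1.20 at an FDR of 0.0207).

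Fkbp5 was the only one of the 4 genes named at a down region, and the region did not overlap its RefSeq body. The region at chromosome 17, 28516001 to 28542500, had a log2 fold change of -1.33 (2.51-fold lower) and an FDR of 2.69e-05, the second most negative of the 120 down regions of the authors' deposited table. Of its 136 windows 48 were down and 0 up in the authors' deposited table, a share of 35.3%, and 32 of the 120 down regions had a lower share. RefSeq places Fkbp5 at 28398753 to 28486149 (minus strand), so the region lay 29.9 to 56.4 kb upstream of the RefSeq start, and the promoter printed above lies outside it. The authors' deposited table nevertheless marks the region with the letters read as promoter and exon of Fkbp5, and gives a further Fkbp5 feature at a distance of 4644 bp. The last cell of that row, which holds features to the right, is empty, so the distance was read as one to the left. It puts the edge of the feature at 28511357, which is 25.2 kb upstream of the RefSeq start of this minus-strand gene. Read the same way, 7 of 10 other left distances in the authors' deposited table came within 10 bp of the distance to the near edge of the RefSeq gene body. The annotation the authors used therefore placed parts of Fkbp5 beyond the RefSeq gene.

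By RefSeq, the Fkbp5-named region held Armc12 whole (28530861 to 28538975, plus strand), which encodes an armadillo repeat protein, and the noncoding genes E230001N04Rik and Gm41506 whole, with the starts of all 3 inside it. Clpsl2 and Clps, which encodes pancreatic colipase, lay 6.99 and 15.7 kb beyond it. The table also names Armc12 there. The region therefore lay at Armc12 and its noncoding neighbours. In the authors' annotation, but not in RefSeq, it also lay at a part of Fkbp5 marked as promoter and exon. That annotation may thus hold another Fkbp5 start there. Which part of the region held the windows counted as down is not given. The change therefore cannot be assigned to Armc12, the noncoding genes or Fkbp5. No region of the table lay over the RefSeq body or the printed promoter of Fkbp5.

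**Figure D3:**
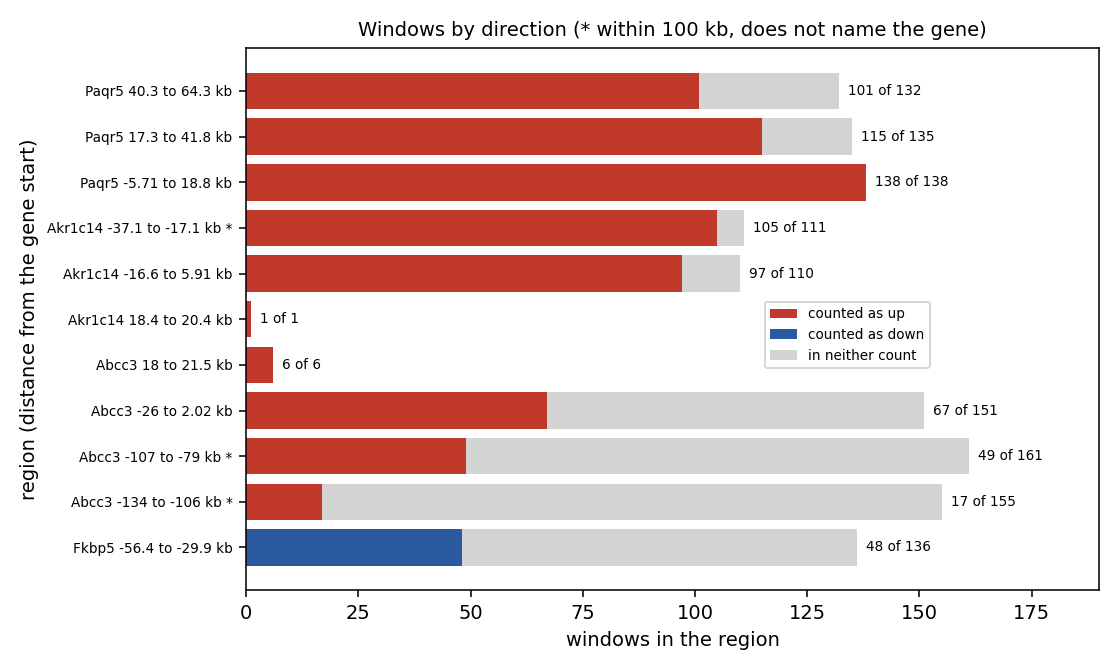
Number of windows per region (horizontal axis) for the 11 regions (vertical axis, labelled by distance from the gene start), split into those counted as up, as down or in neither count in the authors' deposited table. All bars of Paqr5 and the large bars of Akr1c14 are mostly red, whereas windows in neither count take the larger part of the wide Abcc3 bars and of the Fkbp5 bar.

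Among the 7 up regions that name Paqr5, Akr1c14 or Abcc3, the log2 fold change ran from 0.84 to 1.15 with a median of 0.95, beside 0.77 to 2.15 with a median of 0.96 over all 258 up regions of the authors' deposited table. These regions were therefore of ordinary size for the table. Their median width was 24.0 kb, beside 17.2 kb over all up regions. The share of windows counted as up had a median of 88.2% in the 7 regions and of 72.2% in all up regions of the authors' deposited table. The 7 include a region of 1 window, a region of 6 windows and the 3 overlapping regions of Paqr5. With the up regions within 100 kb added, the 10 regions had a median of 86.7% and ran from 11% to 100%. None of the 11 regions held windows of both directions, which was the rule, since only 1 of 258 up and 1 of 120 down regions did. How the authors decided that a window counts is unstated, and windows in neither count may still have changed. Among the genes at up regions, every region of Paqr5 was past 2-fold, and every region naming Akr1c14 or Abcc3 stayed below it.

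**Figure D4:**
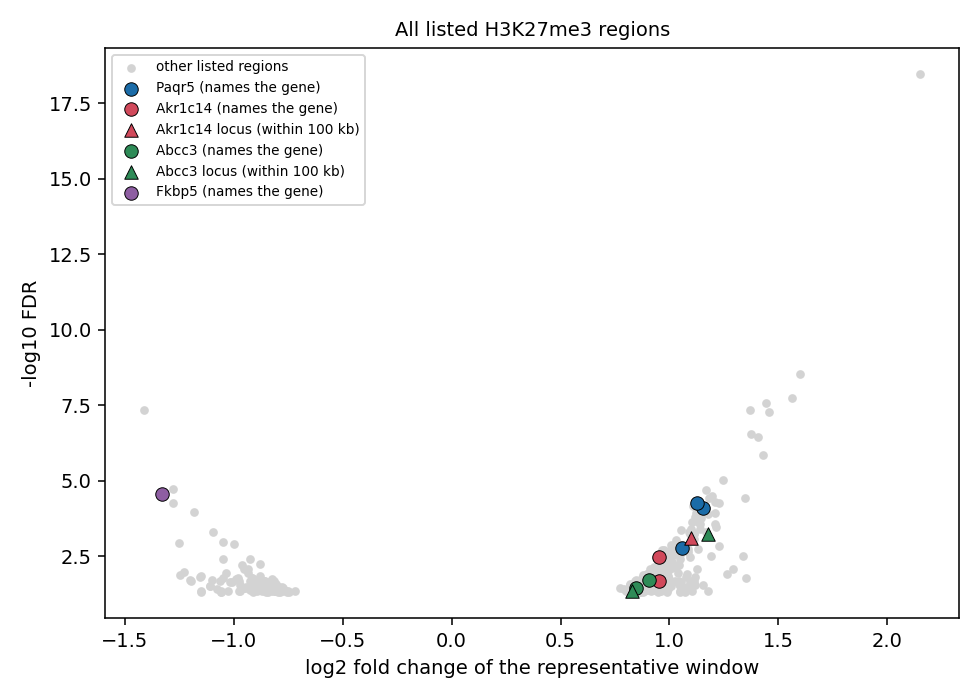
Log2 fold change of the representative window (horizontal axis) against minus log10 of the FDR (vertical axis) for all 378 regions of the authors' deposited table, with the regions of the 4 loci coloured. The Paqr5 points lie above and to the right of the points naming Akr1c14 and Abcc3, and the Fkbp5 point lies near the left end at -1.33.

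The wider pathways were followed through 9 lists holding 139 genes, the 4 members included. The table named 6 of the 139, or 4.32%, beside 1.31% of the 21900 RefSeq protein-coding genes. Without the 4 members it named 2 of 135, or 1.48%, which is near that background. These 2 were Cyp11a1 and Bag1, both at up regions. Cyp11a1, the side-chain cleavage enzyme that makes pregnenolone from cholesterol, was the only one of 28 genes of steroid synthesis and metabolism. Its region at chromosome 9, 57970501 to 57999000, reached from -27.5 to 0.976 kb around the first RefSeq start, so that like the wide Abcc3 region it lay almost wholly upstream. It had a log2 fold change of 0.91 (1.88-fold, FDR 0.0160), with 92 of 144 windows up in the authors' deposited table. Bag1, an HSP70 co-chaperone, was named only as a flank, 3898 bp from a region over the goblet cell gene Spink4, for which the authors' deposited table gives 0.87 on the log2 scale (FDR 0.0293). That region lay beyond the 3′ end of Bag1, 15.8 to 33.3 kb downstream of the Bag1 start.

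In the families of the 4 genes, the table named no relative of any of them. It named 1.31% of all RefSeq protein-coding genes, so few named genes would be found in lists of this size in any case. The 4 genes were chosen because the table names them, so nothing is read from their standing alone in these lists. Abcc3 was the only one of 16 bile acid transport genes and of 11 ABCC family genes, and Paqr5 the only one of 14 PAQR and membrane progesterone-binding genes. Akr1c14 was the only one of 9 Akr1c family genes, and Fkbp5 the only one of 15 FKBP family genes. In the list of 20 steroid receptors, co-chaperones and glucocorticoid targets, Fkbp5 was at a down region and Bag1 beside an up region. None of 16 genes of bile acid synthesis and conjugation and none of 15 genes of bile acid and xenobiotic sensing was named. A gene that is not named had no region past the FDR limit and need not be unchanged.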

How the data were processed

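H3K27me3 was profiled by chromatin immunoprecipitation and sequencing in 4 control and 4 DKO samples, grouped by their titles. Chromatin was cut with micrococcal nuclease after formaldehyde fixation, per the labels' protocols. The submitters' processing notes list edgeR (with no version), SICER 1.0.3, Bowtie 0.12.7, Picard 1.141, SAMtools 1.11 and FastQC 0.10.1 with build mm10, given here without settings or order.

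A single deposited table of the authors' comparison was analysed, whose column headers are those of csaw. Its fields, per the file headers, are each region's counts of windows by direction, p-value and FDR, and log2 fold changes of the representative window (used here) and the best window. It holds 0 columns of per-sample values, so no model was refitted and no test was run. The planned test for counts per sample therefore did not apply. The number of regions tested was recovered from the deposited p-values and FDR (largest relative difference 5.72e-15), with a script tested on simulated data. The last 3 fields hold unquoted commas: cells with letters were taken as overlaps (P promoter, E exon) and cells with a number as flanking features.

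All 4 genes matched a RefSeq gene of GRCm38.p6 and 3 had a promoter entry; for Abcc3 the 5′ end of the gene body was used as start. Of 139 list genes 138 matched. The text names the 4 genes, other genes in their regions or within 100 kb, and list genes named by the table. It also names some other list genes near a listed region, and genes that the table names at the regions of list genes. Members and lists were chosen with earlier results of these data known. Alternatives were FDR 0.01, log2 fold changes of at least 1 in size, the overlap field only, RefSeq gene bodies, run distances of 20 and 500 kb, and the best window. Python 3.11.15, numpy 2.4.6 and matplotlib 3.10.9 were used.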

Additional observations from a re-analysis of the deposited data

How the results depend on the processing

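At FDR 0.01 the 11 regions fell to 6 and the 6 list genes at listed regions to 3, and with log2 fold changes of at least 1 in size the regions fell to 4. Taken by their own values, 7 of the 11 regions pass the first limit and 6 the second. The difference of 1 and 2 regions comes from regions within 100 kb that no longer have a region naming a gene of the set beside them. Abcc3 was named at 0 regions under both limits, Akr1c14 at 1 under FDR 0.01 and 0 past a log2 fold change of 1, and Paqr5 kept 3 and Fkbp5 1 under both. The other 5 alternative counts stayed within 1.5 times. By RefSeq gene bodies 10 regions remained, without the one named for Fkbp5. The best window gave the same direction in 11 of 11 regions, with a difference of at most 0.033 on the log2 scale. No paired analysis was possible because the table holds no value per sample, and for the same reason no sample could be left out. Depth is unknown.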

Other observations

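The down region nearest to Akr1c14, at chromosome 13, 4314001 to 4321500, lay within the Akr1c gene cluster, and was singled out after its values were seen. The table names no gene there. RefSeq places 8 Akr1c genes from 4048991 to 4586543, a span of 538 kb, and 7 of them had no listed region over their body. The region had a log2 fold change of -1.20 (FDR 0.0207) with 4 of 29 windows down in the authors' deposited table. It lay 34.6 kb from Akr1c12 and 113 kb from Akr1c6, between those genes, so the cluster held up regions at the Akr1c14 end and a down region further in.

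Other list genes that the table does not name had a region within 100 kb, a distance that holds for 4.90% of RefSeq protein-coding genes. It held for 6 of 132 such list genes, or 4.55%, among them the Akr1c14 neighbours Akr1c12, Akr1c18 and Akr1c19. The 4.90% also counts genes that the table names, so the 2 shares are not alike. With Cyp11a1 and Bag1, which the table names, the distance held for 8 of 134 list genes outside the 4 members, or 5.97%. Hsd17b7, which encodes a 3-ketosteroid reductase, lay 6.53 kb from an up region with 40 of 66 windows up (log2 fold change 0.94, FDR 0.0297 in the authors' deposited table). Vdr, a receptor for vitamin D that also senses secondary bile acids, lay 51.0 kb from a down region with 8 of 8 windows down (log2 fold change -0.81, FDR 0.0418 in the authors' deposited table). Stip1, an HSP70 and HSP90 co-chaperone, lay 84.0 kb from an up region with 33 of 121 windows up (log2 fold change 0.87, FDR 0.0330 in the authors' deposited table). At the regions near Hsd17b7, Vdr and Stip1 the table names other genes, which are Ccdc190, Tmem106c and Macrod1 in that order.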
